A study of Mus musculus with 16 samples.

Results

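The genes described here carry out the loading of glutamate into synaptic vesicles and the release of those vesicles: the vesicular glutamate transporters *Slc17a7* (VGLUT1) and *Slc17a6* (VGLUT2), the calcium sensors *Syt1* and *Syt2* (synaptotagmins), the SNARE proteins *Snap25*, *Vamp1* and *Vamp2*, and the complexins *Cplx1*, *Cplx2* and *Cplx3*. They were chosen by symbol in the deposited gene table, where all 10 were found among 37583 genes. RNA was sequenced from the cortex and the cerebellum of 8 C57BL/6J mice, 4 wild type and 4 carrying the A391T variant of *Slc39a8*, a metal ion transporter, with 1 library per region and mouse. The wild-type mice were male and 12 weeks old. The sources used here give neither the age and sex of the A391T mice nor whether they carried the variant on both alleles. No mouse received a treatment.

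A neuron that releases glutamate first concentrates it in synaptic vesicles through a vesicular glutamate transporter, driven by the proton gradient of the vesicle. VGLUT1 is the main form in neurons of the cortex and in granule cells of the cerebellum, and VGLUT2 is the main form in the thalamus and in many brainstem neurons, including those that send climbing fibers to Purkinje cells. The vesicle is held at the membrane by a SNARE complex of synaptobrevin (VAMP) on the vesicle with syntaxin and SNAP-25 on the plasma membrane, complexin binds this complex, and synaptotagmin triggers fusion when calcium enters.

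Each library had from 20813432 to 30497206 counts on genes (median 24488842). Levels are given as TPM, a unit that corrects the counts for the length of a gene and the depth of a library. The libraries are named by region (CTX, CBLM) and mouse, and the 4 values of a group are listed in the order CTX447, CTX448, CTX479, CTX480 for wild type and CTX445, CTX446, CTX461, CTX462 for A391T, and likewise for CBLM. Differences between groups are log2 fold changes from edgeR's quasi-likelihood test on the counts. A difference between regions was called at an adjusted p under 0.05 with at least a 2-fold change, and other differences at an adjusted p under 0.05. In the table of RPKM values, the columns of 4 mice match the counts of a different mouse, and libraries were taken as the count files name them.

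The regions differed in the marker genes of their cells as labelled. All 7 granule cell markers and all 5 Purkinje cell markers were called higher in cerebellum in wild-type and in A391T mice, and all 8 markers of cortical projection neurons were called higher in cortex. In mice of both genotypes all 5 microglia markers and 6 of 8 striatum markers were also called higher in cortex, and all 6 choroid plexus markers tested higher in cerebellum. The granule cell markers summed to between 20.5 and 35.4 TPM over the cortex libraries and to between 2385 and 3248 TPM over the cerebellum libraries. Cortical projection neuron markers summed to between 504.5 and 575.7 TPM in cortex and to between 32.7 and 42.9 TPM in cerebellum. The part of these cell types in the differences given below was not tested, and in such tissue samples fewer cells of a type and less RNA per cell cannot be told apart. *Slc39a8* itself was at 2.14 ± 0.579 TPM in wild-type cortex and 2.46 ± 0.361 TPM in A391T cortex (SD, n = 4), which does not check the labels because the variant changes an amino acid.

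Of the 10 genes, 5 were called between the regions of wild-type mice. *Syt2* and *Vamp1* were higher in cerebellum, against 10.5% of all 16040 genes tested, and *Slc17a7*, *Syt1* and *Cplx3* were higher in cortex, against 14.2% of all genes tested. The other 5 differed by less than 2-fold, so that all 10 passed the adjusted p alone, as did 67.8% of all genes tested. DESeq2 in place of edgeR passed 9, all but *Slc17a6*, as did another scaling (RLE), and under the names of the RPKM table edgeR passed 9, all but *Cplx1*. Median size of the log2 fold change was 0.94 over the 10 genes and 0.46 over all genes tested. In the A391T mice, which share no library with the wild-type mice, the same 5 genes were called in the same direction together with *Slc17a6*. There, 3 of the 10 were called higher in cerebellum, against 9.8% of 16005 genes tested, and 3 higher in cortex, against 14.9%, while 9 passed the adjusted p alone, against 62.8%. In all 8 mice taken singly, *Slc17a6*, *Syt2* and *Vamp1* were higher in the cerebellum than in the cortex of the same mouse, and *Slc17a7*, *Syt1*, *Vamp2*, *Cplx2* and *Cplx3* were lower. The TPM ranges of the 8 cortex and 8 cerebellum libraries did not overlap for 6 of the 10 genes, against 50.6% of the 14411 genes with a mean of at least 1 CPM.

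**Figure D1:**
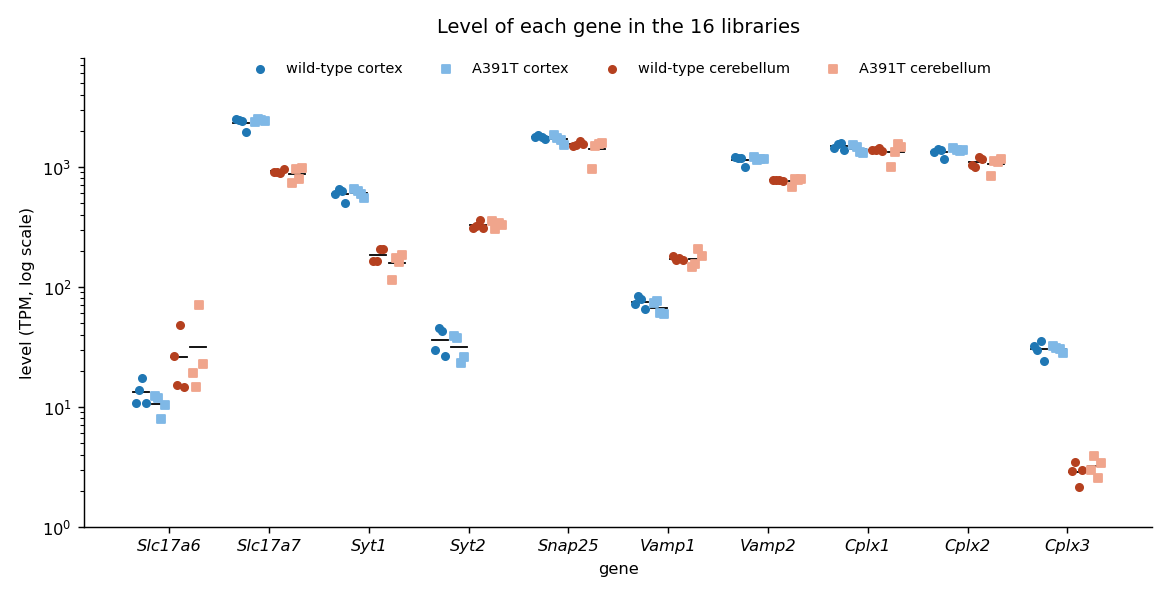
Level of each of the 10 genes in TPM (log scale) in each of the 16 libraries, with a short bar at the mean of the 4 libraries of a group. The 8 cortex and 8 cerebellum libraries stand fully apart for *Slc17a7*, *Syt1*, *Syt2*, *Vamp1*, *Vamp2* and *Cplx3*, while wild-type and A391T libraries of a region overlap.

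*Slc17a7* (ENSMUSG00000070570, NCBIM37 chr7:52419291-52431508, plus strand), the transporter of cortical and granule cell terminals, had the highest level of the 10 genes in cortex and was exceeded in cerebellum by *Snap25*, *Cplx1* and *Cplx2*. In the cortex it was at 2507, 2454, 2407 and 1939 TPM in wild-type mice and at 2361, 2479, 2456 and 2401 TPM in A391T mice. In the cerebellum the values were 901, 909, 889 and 964 TPM in wild type and 732, 951, 798 and 981 TPM in A391T. The highest cerebellum library was thus below the lowest cortex library, CTX480. The level in cerebellum was 2.82-fold lower in wild-type mice (log2 fold change -1.50, SE 0.08, adjusted p = 3e-08) and 3.01-fold lower in A391T mice (log2 fold change -1.59, SE 0.08, adjusted p = 9.3e-08).

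*Slc17a6* (ENSMUSG00000030500, NCBIM37 chr7:58877200-58926495, plus strand), the transporter of thalamic and climbing fiber terminals, was the lowest of the 10 genes in cortex and in cerebellum exceeded only *Cplx3*. In the cortex it was at 10.8, 13.8, 17.3 and 10.8 TPM in wild type and at 12.2, 11.8, 7.93 and 10.4 TPM in A391T. In the cerebellum the values were 26.5, 15.0, 47.9 and 14.5 TPM in wild type and 19.0, 14.5, 70.7 and 22.5 TPM in A391T. Wild-type CBLM479 and A391T CBLM461 were the highest of all, and the ranges of the regions overlapped. Expression in cerebellum was 1.77-fold higher in wild-type mice (log2 fold change 0.83, SE 0.34, adjusted p = 0.048), which was not called, and 2.75-fold higher in A391T mice (log2 fold change 1.46, SE 0.45, adjusted p = 0.016). Without CBLM479, the wild-type log2 fold change was 0.35 (adjusted p = 0.20), and without CBLM448 or CBLM480 it was 1.03 or 1.04 and called. DESeq2 gave 0.81 (adjusted p = 0.11). Without CBLM461, the A391T value was 0.73 (adjusted p = 0.0082) and fell under 2-fold, and with the mouse as a replicate block it was 1.16 (adjusted p = 0.057). Under the names of the RPKM table CBLM461 is wild type, and the log2 fold change was 1.60 in wild type (adjusted p = 0.0067) and 0.52 in A391T, so that the call passed from A391T to wild type.

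Other genes stood out in the same 2 cerebellum libraries. *Tcf7l2*, a transcription factor of thalamic neurons, was at 16.9 TPM in CBLM479, higher still in CBLM461, and at 2.07 to 2.63 TPM in the other 6 cerebellum libraries. *Lhx9*, another transcription factor of the thalamus list, was at 4.87 and 5.59 TPM in the same libraries, against 0.239 to 0.611 TPM. *Sst*, the gene for somatostatin, was at 106 and 143 TPM, against 15.6 to 34.9 TPM. Both libraries were above the other 6 for 3 of 6 genes of the thalamus list, 3 of 6 of the inhibitory neuron list, 2 of 8 of the striatum list, 1 of 7 of the hippocampus list and 0 of the lists for brainstem and cerebellar nuclei (11 genes), choroid plexus (7), unipolar brush cells (3), cortical projection neurons (8) and layer 6b (4). For *Gad2* of the inhibitory neuron list the margin was small, with 111.2 TPM in CBLM461 against at most 111.0 TPM in the other 6. *Slitrk6* of the thalamus list was low in all, at 0.67 TPM in CBLM461 and 0.606 TPM in CBLM479 against at most 0.388 TPM. For how many of all genes both libraries were above the other 6 was not counted. *Lef1* of the thalamus list was at 1.24 TPM in CBLM479, below the 6 other libraries (1.99 to 2.46 TPM). The summed level of the thalamus list, in which *Prkcd* takes most of the sum, was 87.7 to 104 TPM in wild-type and 69.4 to 106 TPM in A391T cerebellum. Whether these cells' RNA had a part in the level of *Slc17a6* was not tested.

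**Figure D2:**
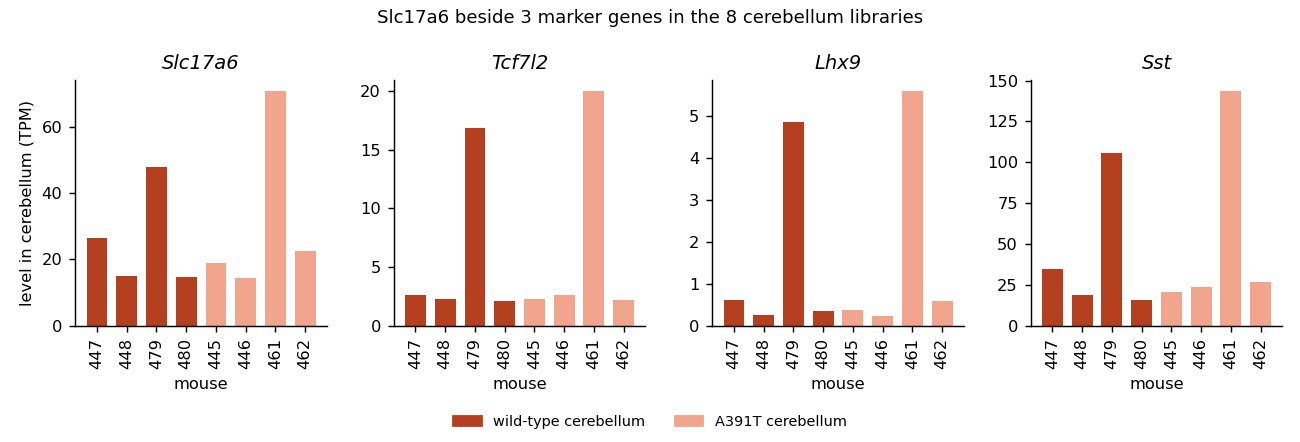
Level in TPM of *Slc17a6* and of 3 marker genes (*Tcf7l2* and *Lhx9* of the thalamus list, *Sst* of the inhibitory neuron list) in the 8 cerebellum libraries, 1 bar per mouse, named by its number, with wild type on the left and A391T on the right. CBLM479 and CBLM461 are the highest for all 4 genes.

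The 2 transporters have similar coding sequences, which bears on whether reads of 50 bases can be told apart. Their most alike 60 coding bases are shown with the 5 differing bases in capitals.
Slc17a6 chr7:58880820-58880879, plus strand: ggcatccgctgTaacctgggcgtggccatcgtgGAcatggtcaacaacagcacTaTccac
Slc17a7 chr7:52424254-52424313, plus strand: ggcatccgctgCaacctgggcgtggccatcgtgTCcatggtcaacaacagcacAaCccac
The longest identical run in their coding sequences was 21 bases. No stretch of 50 bases in the annotated protein-coding transcripts of any of the 10 genes occurred in another of the 10. Noncoding transcripts were not searched. The transcripts searched also held only part of the exons of some genes, as for *Snap25*, with 2219 stretches against 6791 exon bases. Stretches shared with protein-coding transcripts of any other gene were at most 1.32% of those of a gene, for *Cplx2*, then 0.586% for *Snap25*, 0.216% for *Cplx3* and 0.0146% for *Syt2*, and were not found for the other 6. No exon of the 10 genes overlapped an exon of another annotated gene on either strand.

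In TPM, *Slc17a6* made up 0.50% ± 0.116 of the summed level of both transporters over the 8 cortex libraries (SD, n = 8) and 3.19% ± 2.32 over the 8 cerebellum libraries. The lowest share in cerebellum, 1.48%, was above the highest in cortex, 0.714%. The spread in cerebellum came with CBLM461 (8.13%) and CBLM479 (5.12%).

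*Syt1* (ENSMUSG00000035864, NCBIM37 chr10:107934706-108448038, minus strand), the calcium sensor of fast release in most forebrain neurons, was higher in cortex. Its cortex values were 598.5, 650.0, 625 and 497 TPM in wild type and 649.9, 632, 593 and 549 TPM in A391T. Cerebellum libraries had 163, 163, 205 and 205 TPM in wild type and 114, 172, 162 and 182 TPM in A391T. No cerebellum library reached the cortex range, and the lowest was A391T CBLM445. The level in cerebellum was 3.58-fold lower in wild-type mice (log2 fold change -1.84, SE 0.10, adjusted p = 2.8e-08) and 4.15-fold lower in A391T mice (-2.05, SE 0.12, adjusted p = 1.7e-07).

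*Syt2* (ENSMUSG00000026452, NCBIM37 chr1:136605877-136649726, plus strand), the fast calcium sensor of many hindbrain synapses and of some inhibitory neurons, went the other way. Cortex libraries had 29.7, 45.1, 42.6 and 26.6 TPM in wild type and 38.7, 37.8, 23.4 and 26.1 TPM in A391T. In cerebellum, the values were 307, 322, 362 and 308 TPM in wild type and 356, 304, 339.7 and 328 TPM in A391T. The lowest cerebellum library was several times above the highest cortex library, and within single mice the cerebellum level was from 7.14 to 14.5 times the cortex level. Expression in cerebellum was 8.13-fold higher in wild-type mice (log2 fold change 3.02, SE 0.15, adjusted p = 1.5e-08) and 9.86-fold higher in A391T mice (3.30, SE 0.18, adjusted p = 1.3e-07).

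As a result the order of the 2 sensors differed between regions. *Syt2* made up 5.28% ± 0.929 of their summed level in cortex (SD, n = 8) and 65.9% ± 4.57 in cerebellum, with a range of 60.1% to 75.7% in cerebellum. Their sum was 629 ± 75.4 TPM in wild-type cortex and 509 ± 43.0 TPM in wild-type cerebellum (SD, n = 4), so that it differed less than either gene. The gene length in the deposited table is 11419 bases for *Syt1*, and the exons of GENCODE vM1 cover 8338 bases. With the latter length the share of *Syt2* was 4.2% in wild-type cortex and 56.4% in wild-type cerebellum, and *Syt2* was still above *Syt1* in cerebellum.

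The coding sequences of *Syt1* and *Syt2* were most alike in 60 bases that span an exon junction, shown here with the 7 differing bases in capitals and the outer coordinates of the stretch, intron included.
Syt1 chr10:107941531-108020933, minus strand: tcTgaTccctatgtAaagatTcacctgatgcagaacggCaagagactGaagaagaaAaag
Syt2 chr1:136642421-136643386, plus strand: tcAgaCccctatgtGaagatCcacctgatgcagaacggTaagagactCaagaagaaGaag
The longest identical run was 26 bases, shorter than a read of 50 bases. RefSeq gives 2 starts for *Syt2*. The 250 bases upstream of the one at the start of the gene given above are shown because this gene had the largest rise in cerebellum. The sequence is that of RefSeq (GRCm38.p6) and matched NCBIM37 once, and capitals mark matches on either strand to GGGCGG or CCAAT.
Syt2 upstream, chr1:136605627-136605876, plus strand: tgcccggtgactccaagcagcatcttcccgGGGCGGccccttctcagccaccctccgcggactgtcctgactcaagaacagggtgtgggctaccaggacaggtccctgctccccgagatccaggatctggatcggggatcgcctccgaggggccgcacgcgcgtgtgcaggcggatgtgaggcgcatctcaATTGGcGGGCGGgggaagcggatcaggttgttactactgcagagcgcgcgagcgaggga
It holds GGGCGG at 2 places, a sequence found upstream of 32.7% of 32851 RefSeq starts, and CCAAT at 1 place, found upstream of 33.8%. It holds 22 CG dinucleotides, more than 85.2% of all such sequences, whose median is 6. TATAAA, found upstream of 12.4% of all starts, TGACGTCA (1.5%) and CACGTG (6.0%) were not among its letters. The stretch upstream of the other start, chr1:136542939-136543188, holds GGGCGG at 3 places, no CCAAT and 30 CG dinucleotides, more than 94.1% of all.

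Of the SNARE genes, *Snap25* (ENSMUSG00000027273, NCBIM37 chr2:136539189-136608164, plus strand), the plasma membrane partner of synaptobrevin, differed least between regions. In the cortex it was at 1756, 1824, 1784 and 1691 TPM in wild type and at 1856, 1731, 1672 and 1519 TPM in A391T. In the cerebellum the values were 1499, 1513, 1645 and 1540.1 TPM in wild type and 954, 1496, 1558 and 1581 TPM in A391T, so that the regions overlapped and CBLM445 lay far below the rest. The level in cerebellum was 1.26-fold lower in wild-type mice (log2 fold change -0.34, SE 0.06, adjusted p = 0.00025) and 1.31-fold lower in A391T mice (-0.39, SE 0.13, adjusted p = 0.021), under the 2-fold criterion in both. Without CBLM445 the A391T value was -0.27 (adjusted p = 0.0014), and without CTX445 -0.35 (adjusted p = 0.057).

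*Vamp2* (ENSMUSG00000020894, NCBIM37 chr11:68901992-68905886, plus strand), the main synaptobrevin of the forebrain, was at 1217, 1193, 1192 and 987 TPM in wild-type cortex and at 1205, 1147, 1151 and 1159 TPM in A391T cortex. In the cerebellum it was at 782, 773, 777 and 757 TPM in wild type and at 682, 786, 776 and 791 TPM in A391T. The regions did not overlap. Expression in cerebellum was 1.65-fold lower in wild-type (log2 fold change -0.72, SE 0.07, adjusted p = 4.6e-06) and in A391T mice (-0.72, SE 0.05, adjusted p = 1.5e-06), short of 2-fold.

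*Vamp1* (ENSMUSG00000030337, NCBIM37 chr6:125165569-125194561, plus strand), the synaptobrevin of many spinal cord, brainstem and motor synapses, was higher in cerebellum. Levels in cortex were 71.5, 84.0, 79.0 and 65.5 TPM in wild type and 73.0, 75.8, 60.1 and 59.4 TPM in A391T. In the cerebellum the values were 180.3, 167, 174 and 166 TPM in wild type and 146, 155, 205 and 179 TPM in A391T. All cerebellum libraries were above all cortex libraries, the highest being CBLM461. The level in cerebellum was 2.06-fold higher in wild-type mice (log2 fold change 1.05, SE 0.07, adjusted p = 2.6e-07) and 2.37-fold higher in A391T mice (1.25, SE 0.11, adjusted p = 6.1e-06). The wild-type difference was close to the criterion and was 0.99 without CTX480, with an adjusted p of 8.8e-08. Under the names of the RPKM table the A391T value was 0.99 (adjusted p = 7e-07), just short of 2-fold and no longer called.

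*Vamp1* made up 5.79% ± 0.626 of the summed level of the 2 synaptobrevins in cortex (SD, n = 8) and 18.3% ± 1.27 in cerebellum. *Vamp2* thus kept the larger share in every library, unlike *Syt1* among the sensors. The 2 genes were most alike in 60 coding bases that span an exon junction, shown with the 4 differing bases in capitals and outer coordinates that include the intron.
Vamp1 chr6:125168716-125168985, plus strand: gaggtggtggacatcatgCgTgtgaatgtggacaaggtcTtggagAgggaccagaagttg
Vamp2 chr11:68902726-68903289, plus strand: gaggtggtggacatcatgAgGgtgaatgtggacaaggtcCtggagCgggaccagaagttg
The longest identical run was 18 bases. The 250 bases upstream of the RefSeq start of *Vamp1*, matched once in NCBIM37, are shown for comparison with *Syt2*. Their end lies inside the gene as annotated in NCBIM37, whose start is at 125165569. Capitals again mark GGGCGG or CCAAT on either strand.
Vamp1 upstream, chr6:125165349-125165598, plus strand: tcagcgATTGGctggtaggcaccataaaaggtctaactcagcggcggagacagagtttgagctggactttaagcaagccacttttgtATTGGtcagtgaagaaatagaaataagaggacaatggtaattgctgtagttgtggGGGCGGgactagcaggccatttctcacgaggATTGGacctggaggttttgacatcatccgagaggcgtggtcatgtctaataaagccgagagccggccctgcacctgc
This stretch holds GGGCGG at 1 place and CCAAT at 3 places. With 9 CG dinucleotides it was above 59.7% of all upstream sequences.

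*Cplx1* (ENSMUSG00000033615, NCBIM37 chr5:108947573-108979043, minus strand) and *Cplx2* (ENSMUSG00000025867, NCBIM37 chr13:54472713-54485278, plus strand) encode the complexins of most central synapses. *Cplx1* was at 1428, 1547, 1588 and 1390.1 TPM in wild-type cortex and at 1392, 1372, 1422 and 1357 TPM in wild-type cerebellum. In A391T mice it was at 1508, 1474, 1325 and 1291 TPM in cortex and at 999, 1323, 1540.4 and 1475 TPM in cerebellum. The regions overlapped, and the cerebellum was lower in 6 of 8 mice. The log2 fold change was -0.25 in wild-type mice (SE 0.06, adjusted p = 0.0022) and -0.18 in A391T mice (SE 0.11, 95% interval -0.42 to 0.06, adjusted p = 0.17). Under the names of the RPKM table *Cplx1* was at -0.10 in wild-type mice (adjusted p = 0.27) and -0.34 in A391T mice (adjusted p = 0.0035), so that the genotype in which it passed was exchanged. *Cplx2* ranged from 1166 to 1421 TPM over the cortex libraries and from 844 to 1208 TPM over the cerebellum libraries, with the cerebellum lower in all 8 mice. Its log2 fold change was -0.41 in wild-type mice (SE 0.07, adjusted p = 0.0005) and -0.50 in A391T mice (SE 0.08, adjusted p = 0.00024).

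The 2 complexins had similar levels in both regions, with *Cplx1* at 51.7% ± 1.96 of their sum in cortex and 55.7% ± 1.83 in cerebellum (SD, n = 8). In A391T cortex each was the higher of the pair in 2 of 4 libraries. Their coding sequences were most alike in the first 60 bases, from the start codon, where 5 bases differ.
Cplx1 chr5:108954558-108977555, minus strand: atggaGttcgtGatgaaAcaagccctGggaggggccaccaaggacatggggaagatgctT
Cplx2 chr13:54480033-54480204, plus strand: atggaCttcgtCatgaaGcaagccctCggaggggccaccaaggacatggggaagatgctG
The coordinates include an intron. The identical run of 32 bases within this stretch was the longest of the 4 paralog pairs compared.

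*Cplx3* (ENSMUSG00000039714, NCBIM37 chr9:57447826-57454088, minus strand), a complexin known from retinal ribbon synapses and from the deepest layer of the cortex, had the largest difference of the 10 genes. Levels in cortex were 32.4, 29.6, 35.2 and 24.3 TPM in wild type and 32.02, 30.9, 30.0 and 28.3 TPM in A391T. Cerebellum libraries had 2.92, 3.45, 2.14 and 2.96 TPM in wild type and 3.00, 3.86, 2.57 and 3.38 TPM in A391T, from 40 to 73 counts per library. The ranges lay far apart, and the cortex level was from 8.0 to 16.5 times the cerebellum level within single mice. Expression in cerebellum was 11.7-fold lower in wild-type mice (log2 fold change -3.55, SE 0.16, adjusted p = 5.1e-09) and 10.1-fold lower in A391T mice (-3.34, SE 0.12, adjusted p = 8.4e-09). *Cplx3* was a small part of the 3 complexins in both regions, with 1.07% ± 0.0802 in cortex and 0.126% ± 0.0285 in cerebellum (SD, n = 8). Of the 4 genes of the layer 6b list, 1 was called higher and 1 lower in cerebellum in mice of each genotype.

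The 250 bases upstream of *Cplx3* from RefSeq, matched once in NCBIM37, are shown because this gene differed most. Capitals mark CCAAT or CACGTG on either strand.
Cplx3 upstream, chr9:57454089-57454338, minus strand: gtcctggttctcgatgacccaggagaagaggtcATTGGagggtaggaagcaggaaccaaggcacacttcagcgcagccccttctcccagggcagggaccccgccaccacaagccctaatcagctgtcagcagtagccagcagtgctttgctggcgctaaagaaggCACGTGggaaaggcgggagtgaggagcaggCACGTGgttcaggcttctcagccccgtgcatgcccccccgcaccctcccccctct
CACGTG occurs at 2 places, CCAAT at 1, and GGGCGG is not among the letters of this stretch. It holds 9 CG dinucleotides, as that of *Vamp1* does.

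**Figure D3:**
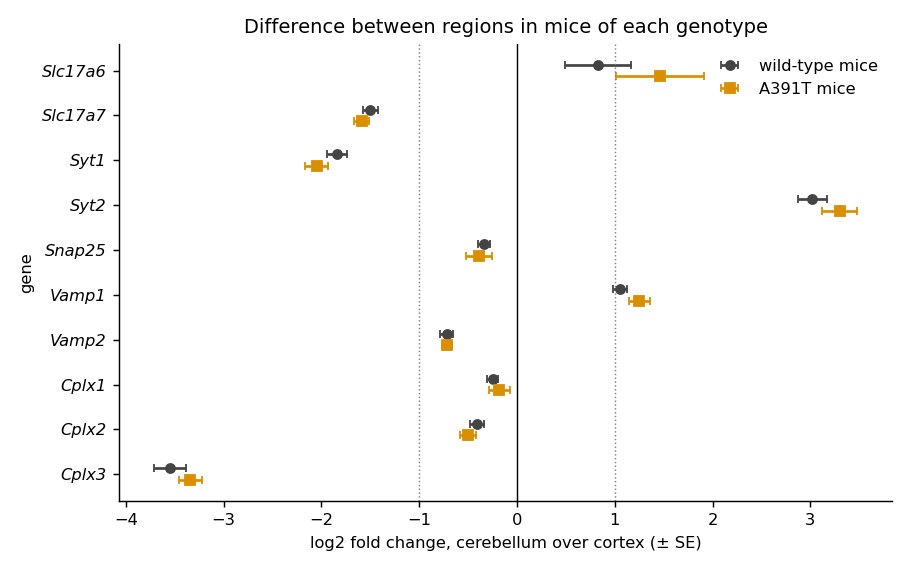
Log2 fold change of cerebellum over cortex for each of the 10 genes, with its SE, in wild-type mice (circles) and A391T mice (squares, n = 4 libraries per region and genotype), and dotted lines at a 2-fold change. *Syt2* lies farthest to the right and *Cplx3* farthest to the left, and the error bars of *Slc17a6* are the widest.

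**Figure D4:**
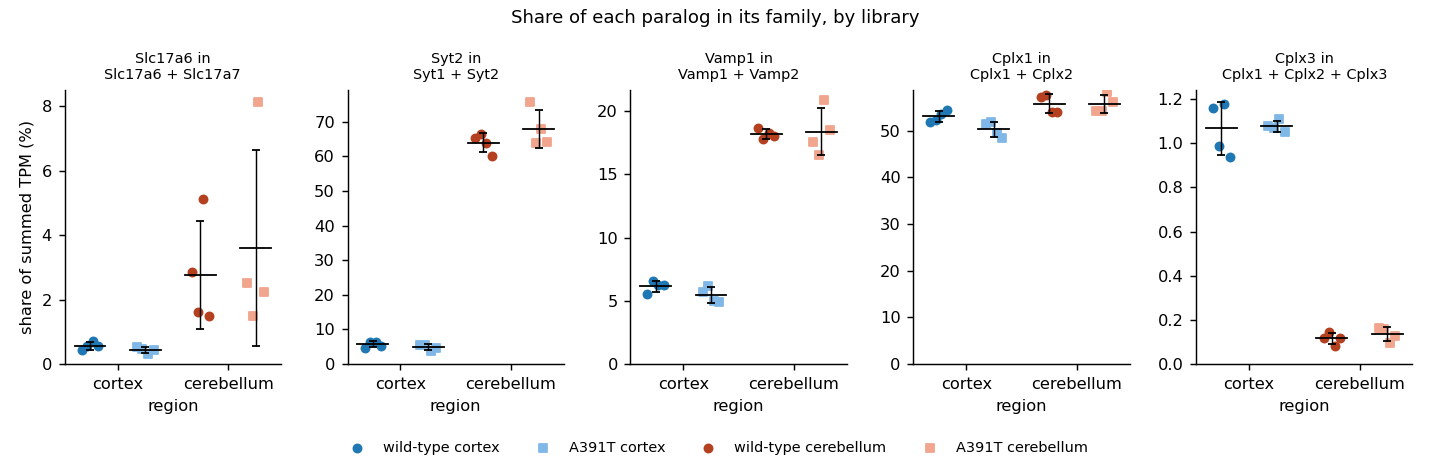
Share in TPM of *Slc17a6*, *Syt2*, *Vamp1*, *Cplx1* and *Cplx3* in the sum over the family members named above each panel, in each of the 16 libraries, with the mean and SD of the 4 libraries of a group. *Syt2* is at 5.28% of the 2 synaptotagmins in cortex and 65.9% in cerebellum, and *Cplx1* is at 51.7% and 55.7% of its pair.

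Ordered by level, the genes of wild-type cortex were *Slc17a7* at 2327 ± 262 TPM, *Snap25* at 1763 ± 55.9, *Cplx1* at 1488 ± 94.4, *Cplx2* at 1319 ± 108, *Vamp2* at 1147 ± 108, *Syt1* at 593 ± 67.3, *Vamp1* at 75.0 ± 8.18, *Syt2* at 36.0 ± 9.20, *Cplx3* at 30.4 ± 4.67 and *Slc17a6* at 13.2 ± 3.10 TPM (SD, n = 4). The neighbours *Cplx1* and *Cplx2*, *Cplx2* and *Vamp2*, and *Syt2* and *Cplx3* overlapped in range. In wild-type cerebellum *Snap25* (1549 ± 66.1 TPM) and *Cplx1* (1386 ± 27.9 TPM) led, *Cplx2*, *Slc17a7* and *Vamp2* followed, and *Syt2* stood above *Syt1* and *Vamp1*, the only neighbours there that overlapped. The A391T mice had the same order in cortex, and in cerebellum the same order except that *Vamp1* and *Syt1*, whose ranges overlapped, changed places. Between genes, *Slc17a7* ranked 18th of all genes by mean TPM in wild-type cortex and 97th in wild-type cerebellum.

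Libraries that stood apart touched several of the 10 genes at once. How often they were the lowest over all genes was not counted, so the counts below do not set the 10 genes apart. A391T CBLM445 was the lowest of its region for 7 of the 10 genes, and *Pvalb*, the gene for the calcium-binding protein parvalbumin, was at 4418 TPM in it against 1545 to 1871 TPM in the other 7 cerebellum libraries. CBLM445 was also the lowest of the 8 for 6 of the 7 granule cell markers, all but *Zic1*, among them *Gabra6* at 520.5 TPM against at least 616.5 TPM and *Neurod1* at 187 TPM against at least 269.8 TPM. It was the highest for *Ppp1r17*, from the Purkinje cell list of 5 genes, at 699.4 TPM against at most 513.5 TPM. The place of CBLM445 for the other genes of that list is not given here, so *Ppp1r17* does not stand for the list. The whole list summed to 4347 to 4905 TPM in A391T cerebellum and to 4218 to 4592 TPM in wild-type cerebellum. The part of granule cells and Purkinje cells in the low values was not tested. Wild-type CTX480 was the lowest of its group for 9 of the 10, all but *Slc17a6*. Among all 8 cortex libraries, CTX480 was the lowest for 5 of the 10, *Slc17a7*, *Syt1*, *Vamp2*, *Cplx2* and *Cplx3*. Of the same 8, A391T CTX461 was the lowest for *Slc17a6* and *Syt2*, and A391T CTX462 for *Snap25*, *Vamp1* and *Cplx1*. In CTX461 *Chat*, the gene for the enzyme that makes acetylcholine, was at 0.25 TPM, against 2.58 to 5.34 TPM in the other cortex libraries. The striatum list summed to 420.0 TPM in the lowest A391T cortex library, CTX461, and to at least 1066 TPM in wild-type cortex, and the part of either in the values of the 10 genes was not tested. CBLM462 and CBLM479 had *Ttr*, a choroid plexus gene, at 28.7 and 26.7 TPM, against 2316 to 7939 TPM in the other 6. Leaving out each library in turn, the number of the 10 genes called between regions was 4 to 6 in wild-type and 5 to 6 in A391T mice, and the changes were at *Slc17a6* and *Vamp1* as given above.

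Between genotypes none of the 10 genes was called. In the cortex, edgeR found 0 of 10 with an adjusted p under 0.05, 0 with an unadjusted p under 0.05, and DESeq2 found 0, where edgeR called 0.0126% of 15815 genes tested (2 genes) and 748 had an unadjusted p under 0.05. In the cerebellum all 3 counts were again 0, and edgeR called 0.0% of 15668 genes tested, of which 1340 had an unadjusted p under 0.05. The log2 fold change of A391T over wild type ran from -0.33 for *Slc17a6* to 0.05 for *Cplx2* in cortex and from -0.17 for *Syt1* to 0.33 for *Slc17a6* in cerebellum. The intervals set what these libraries could show. For *Vamp2* in cerebellum the 95% interval was -0.10 to 0.15 and for *Slc17a7* in cortex -0.12 to 0.20. For *Slc17a6* in cerebellum it was -0.86 to 1.51 (SE 0.53), which includes a 2-fold rise. Without CBLM461 the value for *Slc17a6* in cerebellum was -0.41, again not called. Under the names of the RPKM table *Slc17a6* was at 0.06 in cortex and -0.99 in cerebellum, so that both directions turned.

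The test of whether the difference between regions itself differed between genotypes called none of the 10 genes, with 0 at an unadjusted p under 0.05 in edgeR and 0 in DESeq2, and called 0.0% of all 16589 genes tested, of which 805 had an unadjusted p under 0.05. The largest value was that of *Slc17a6*, 0.65 (SE 0.60, 95% interval -0.63 to 1.92, adjusted p = 0.79). It was -0.09 without CBLM461 and -1.06 under the names of the RPKM table, so that its direction turned. *Syt2* (0.29, SE 0.24, adjusted p = 0.77), *Vamp1* (0.22, SE 0.14, adjusted p = 0.77) and *Cplx3* (0.22, SE 0.21, adjusted p = 0.79) followed, and *Syt1* was at -0.20. Under those names *Syt2* was at -0.34 and *Vamp1* at -0.31. The call of *Slc17a6* in A391T mice and its absence in wild-type mice was therefore not shown to be a difference between genotypes. Nor was such a difference excluded, as the interval for *Slc17a6* includes one of more than 2-fold.

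Patterns across libraries were compared as a description, by Pearson correlation of log2 CPM over the 16 libraries with each of 14410 other genes with a mean of at least 1 CPM. The libraries form 2 clusters by region, which enters these values. *Syt2* was among the 3 genes most like *Vamp1* (r = 0.99), beside *Nefh* and *Pygm*. *Slc17a6* was most like *Lhx9* (r = 0.92), then *Sema3f* and *Tcf7l2* (both r = 0.87), and CBLM461 and CBLM479 were the highest of the 16 libraries for all 3. *Tcf7l2* was at 1.82 to 2.31 TPM in cortex, close to the 6 other cerebellum libraries. Within groups, over deviations from the 4 group means, the nearest genes were *Tox2* (r = 0.95), *Pak6* and *Tmem215* for *Slc17a6*, *Osbpl10* (r = 0.90), *St3gal2* and *Phyhip* for *Slc17a7*, and *Cnksr2* (r = 0.97) for *Syt1*. For *Syt2* they were *Sdf4* (r = 0.90), *Krt28* and *Slc45a4*, for *Snap25* *Fgf12* (r = 0.98), for *Vamp1* *Zmat4* (r = 0.96), *Kcnab3* and *Nefm*, and for *Vamp2* *Tmem184b* (r = 0.93). *Dffa* (r = 0.96) was nearest to *Cplx1*, *Diap2* (r = 0.96) to *Cplx2*, and *Alg14* (r = 0.82) to *Cplx3*. Among the 10 genes the closest pairs within groups were *Syt1* with *Cplx2* (r = 0.94) and *Snap25* with *Cplx1* (r = 0.90), and the most opposed were *Slc17a6* and *Cplx3* (r = -0.66). These points share libraries, among them the low CBLM445 and, for *Slc17a6*, the high CBLM461 and CBLM479.

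The other genes of vesicle loading and release were taken from a list of 73 symbols in 5 classes, of which 69 were in the files and 68 were tested. In wild-type mice 8 were called higher in cerebellum and 14 higher in cortex, against the 10.5% and 14.2% of all genes given above. In A391T mice 7 and 15 were called, against 9.8% and 14.9% of all genes tested there. The median log2 fold change of the 68 was -0.19 in wild-type mice, against 0.02 over all genes tested, and its median size was 0.66 against 0.46. Between genotypes edgeR called 0 genes of the list in cortex (1 at an unadjusted p under 0.05, 0 by DESeq2), 0 in cerebellum (3 at an unadjusted p under 0.05, 0 by DESeq2) and 0 in the test of the interaction (2 at an unadjusted p under 0.05, 0 by DESeq2), beside the 748, 1340 and 805 of all genes given above. *Slc32a1*, *Syt12* and *Unc13a* are named below after their values were seen, and the other genes by rank of their change within a class.

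Among the 4 other vesicular transporters in the files, *Slc17a8* (VGLUT3), found in scattered serotonin, acetylcholine and GABA neurons, was the only call, against 14.2% of all genes tested called higher in cortex and 10.5% in cerebellum. It was at 3.50 ± 0.874 TPM in wild-type cortex and 0.108 ± 0.0891 TPM in wild-type cerebellum (SD, n = 4), a log2 fold change of -5.14 (SE 0.37, adjusted p = 2.6e-07). *Slc32a1*, the vesicular transporter of GABA and glycine, had a log2 fold change of 0.83 (SE 0.13, adjusted p = 0.00017), equal in size to that of *Slc17a6* with a smaller error.

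Of 14 other calcium sensors, 4 were called higher and 3 lower in cerebellum in mice of each genotype, against 10.5% and 14.2% of all genes tested in wild-type and 9.8% and 14.9% in A391T mice. Their median size was 1.14 in wild-type and 0.94 in A391T mice, against 0.46 and 0.45 over all genes tested. *Syt9*, a fast sensor close to *Syt1* and *Syt2*, went from 9.02 ± 1.63 to 70.7 ± 2.74 TPM (log2 fold change 2.81, SE 0.11), and *Doc2b*, a high-affinity calcium sensor of spontaneous release, from 22.7 ± 4.73 to 122.6 ± 3.49 TPM (2.28, SE 0.12). *Syt10* (1.34, SE 0.26) and *Syt12* (1.28, SE 0.08) were also higher in cerebellum. *Doc2a* (log2 fold change -5.40, SE 0.28), *Syt5* (-4.55, SE 0.20) and *Syt17* (-3.31, SE 0.10) were higher in cortex. *Doc2a* and *Doc2b*, 2 paralogs of the same family, were thus called in opposite directions, as *Syt1* and *Syt2* were.

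Of 11 other SNARE genes, 1 was called in each direction in wild-type mice, against 10.5% of all genes tested higher and 14.2% lower in cerebellum. *Stx1a*, a plasma membrane syntaxin, was at 605 ± 42.8 TPM in wild-type cortex and 5.62 ± 1.26 TPM in wild-type cerebellum (log2 fold change -6.90, SE 0.14, adjusted p = 1.7e-11), larger than any difference among the 10 genes. *Vamp8*, a VAMP of secretion and endosomes, was higher in cerebellum (1.72, SE 0.12, adjusted p = 1.9e-07).

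Of 13 SNARE regulators tested, 2 were called higher in cerebellum and 1 in cortex in wild-type mice, against 10.5% and 14.2% of all genes tested. They included *Unc13* genes, which encode the vesicle priming proteins Munc13. *Unc13c* went from 17.2 ± 3.42 to 104.1 ± 5.27 TPM (log2 fold change 2.45, SE 0.12), and *Unc13b* from 19.6 ± 0.541 to 6.05 ± 0.516 TPM (-1.85, SE 0.06). *Unc13a* had a log2 fold change of -0.87 (SE 0.16, adjusted p = 0.00053) in wild-type mice and was called in A391T mice (-1.34, SE 0.11). *Prrt2*, a regulator of SNARE assembly, was higher in cerebellum (1.39, SE 0.30).

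Among 26 active zone and vesicle proteins, 1 was called higher in cerebellum and 8 in cortex in wild-type mice, against 10.5% and 14.2% of all genes tested. By adjusted p alone 4 higher and 14 lower passed, against 67.8% of all genes in either direction. The scaffold gene *Erc1* rose in wild-type mice (log2 fold change 1.15, SE 0.11) and was not called in A391T mice (0.88, SE 0.11), where no gene of this class was called higher in cerebellum. Its paralog *Erc2* fell (-2.50, SE 0.09). *Rimbp2*, which links calcium channels to the release site, had a log2 fold change of -4.10 (SE 0.21), and *Rab27b*, a small GTPase of secretory vesicles, of -2.32 (SE 0.08).

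**Figure D5:**
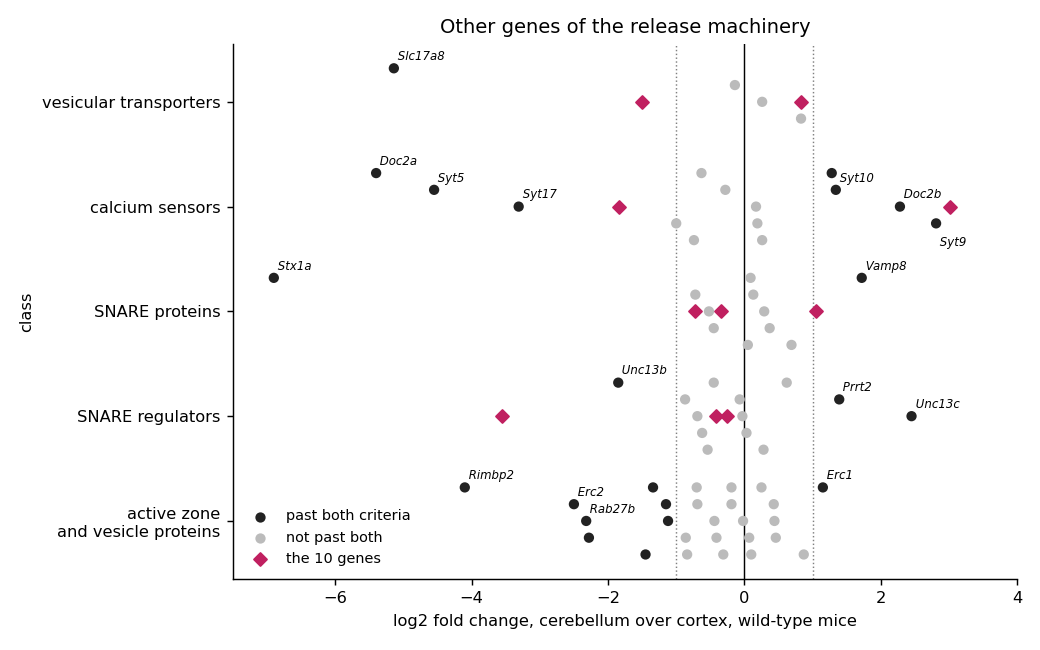
Log2 fold change of cerebellum over cortex in wild-type mice for the 68 tested genes of the release machinery list in 5 classes (dots, black where past both criteria) and for the 10 genes (diamonds), with dotted lines at a 2-fold change. Vertical position within a class only separates the points, and *Stx1a* lies farthest to the left.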

How the data were processed

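The authors aligned reads of 50 bases with STAR to mm9 (NCBIM37) and counted them per gene with HTSeq, and the deposited files hold these raw counts for 16 libraries, with a table of RPKM values and gene lengths. The polyA RNA came from the cortex and cerebellum of the same mice. Of the reported reads per library, 10.21% to 13.17% were on no gene, 2.2% to 2.75% were ambiguous and 8.41% to 12.09% were not unique, and these rows were left out. TPM was computed here from the counts and the deposited lengths. The deposited RPKM values served to compare library names and gave an alternative: in 8 of 16 columns, of 4 mice, they match the counts of another mouse.

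Counts were tested with edgeR 4.0.16 (TMM, filterByExpr, quasi-likelihood, Benjamini-Hochberg over all genes tested) in R 4.3.3, separately for each comparison, with DESeq2 1.42.0 as an alternative. The steps were tested on simulated data. The 10 genes, the lists and the tests were chosen with earlier results of these data known. Genes of the release machinery list were named as the 3 largest changes per class and direction, with exceptions given in the text. Regions were sampled from the same animals, so the mouse can serve as a block, although same-mouse deviations correlated only at -0.15 to 0.20 (median -0.08), against -0.24 to 0.21 between mice. The libraries of a group are separate mice. Replicates differed by more than sampling noise (chi-square per degree of freedom 3.08 to 74.5). RefSeq promoters were found for 8 of the 10 genes, not for *Snap25* and *Vamp2*.

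Results for some genes are not reported here.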

Additional observations from a re-analysis of the deposited data

Results flagged for a closer look

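Of 60 groups of 4 libraries (levels of the 10 genes and 5 paralog shares), 6 held a library far from the other 3 by Dixon's criterion, which chance flags in about 1 of 20 groups. *Slc17a6* in A391T cerebellum was at 70.7 TPM in CBLM461 and at 14.5 to 22.5 TPM in the others, and its share of the 2 transporters was 8.13% there against 1.5% to 2.53%. In A391T CBLM445, *Snap25* was at 954.1 TPM against 1496 to 1581 TPM, *Vamp2* at 681.7 TPM against 776 to 791 TPM and *Cplx2* at 843.8 TPM against 1103 to 1153 TPM. *Vamp2* in wild-type cortex was at 986.6 TPM in CTX480 and at 1192 to 1217 TPM in the others.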

How the results depend on the processing

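Between regions, all 10 genes kept their direction under each scaling tried, with 3 higher and 7 lower in cerebellum. Scaling by library totals moved the median log2 fold change of all genes from 0.02 to 0.14 in wild type and from 0.03 to 0.16 in A391T mice, and *Snap25* in A391T mice then missed the adjusted p (-0.26, adjusted p = 0.11). By adjusted p alone, 10 genes passed in wild-type mice in place of 5 called. With the mouse as a replicate block, 5 genes were called in wild-type and 5 in A391T mice and 0 in the interaction, and the only call that changed was that of *Slc17a6* in A391T mice. Leaving out single libraries gave 4 to 6 calls in wild-type and 5 to 6 in A391T mice. Under the names of the RPKM table, *Vamp1* in A391T mice was 0.99 and lost its call, and *Slc17a6* lost its call in A391T mice (0.52) and was called in wild type (1.60).

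Counting each group mean once per alternative, levels moved by less than 1 SD in 266 comparisons and by more in 54, and shares in 117 and 23. Of the smaller moves, 160 of levels and 80 of shares came from leaving out 1 of 4 libraries. Such a step cannot move a mean by 1 SD, so these say nothing of stability. Of the larger moves, 35 of levels and 16 of shares came with CPM in place of TPM. None of the 10 genes was called between genotypes under any alternative run, but small differences changed sign. With the names of the RPKM table the cortex values (A391T over wild type, log2) were *Slc17a6* 0.06, *Syt2* 0.34, *Snap25* 0.10, *Vamp1* 0.20, *Cplx1* 0.08 and *Cplx3* 0.08, the cerebellum values *Slc17a6* -0.99, *Slc17a7* 0.00 and *Vamp1* -0.10, and the interaction *Slc17a6* -1.06, *Syt2* -0.34, *Vamp1* -0.31, *Vamp2* -0.06 and *Cplx1* -0.22. Without CBLM461 and CBLM479, left out after seeing the data, *Vamp1* was -0.04 and *Cplx2* 0.01 in cerebellum. Leaving out each library in turn, the ranges were, in cortex, *Slc17a7* -0.03 to 0.09, *Syt1* -0.05 to 0.06, *Vamp2* -0.05 to 0.04 and *Cplx3* -0.10 to 0.04. In cerebellum they were *Slc17a6* -0.41 to 0.78, *Slc17a7* -0.08 to 0.01, *Snap25* -0.16 to 0.01, *Vamp1* -0.05 to 0.10, *Cplx1* -0.08 to 0.08 and *Cplx2* -0.06 to 0.04. In the interaction they were *Slc17a6* -0.09 to 1.11, *Snap25* -0.09 to 0.08 and *Vamp2* -0.03 to 0.07. The cause of these changes was not tested.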
